A study of Mus musculus with 12 samples.

Results

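The genes described here are 10 mouse genes that move heme and iron into, through and out of cells: Slc48a1, Hmox1, Blvrb, Fth1, Ftl1, Slc40a1, Tfrc, Slc11a1, Steap4 and the transcription factor gene Spic. They were chosen by name from a list of iron and heme genes, and all 10 were found among the 14460 genes of the deposited table. All 10 had a signal averaging 1 or more, the limit set for testing, and were among the 12879 genes tested.

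RNA was measured by sequencing in sorted cells labelled as cardiac macrophages, from hearts of Cx3cr1 GFP/+ mice of 2-3 months. A GFP knock-in takes the place of 1 of the 2 Cx3cr1 alleles, in the controls as in the injured mice, so every group has 1 working copy of this chemokine receptor gene. The 4 groups of 3 libraries are healthy hearts that had no surgery (day 0) and hearts taken 3, 7 and 30 days after a cryoinjury, in which part of the wall is frozen as a model of infarction. The gate was Ly6c-low, CX3CR1-high on days 0, 7 and 30, but it was Ly6c-high, CX3CR1-low on day 3. Time after injury and sorting gate therefore cannot be told apart in any comparison with day 3. The uninjured hearts were not operated on, so surgery and injury cannot be told apart in comparisons with day 0. The labels call the 3 libraries of a group independent biological replicates; p-values measure the spread between these libraries.

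Macrophages recycle iron. They engulf red cells and hemoglobin, carry heme out of the phagosome, open the heme ring to release iron, and then either store the iron in ferritin or export it through ferroportin. Heme induces the genes of breakdown, storage and export by removing the repressor BACH1 from DNA, and the iron inside the cell sets how much ferritin, ferroportin and transferrin receptor is made from their mRNAs.

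That control by iron acts through iron-responsive elements, short RNA hairpins bound by iron regulatory proteins when iron is scarce. In a 5′ UTR the bound hairpin blocks translation, and in the 3′ UTR of the transferrin receptor mRNA it protects the mRNA from decay. The hairpins of 4 of the 10 genes are shown because these 4 genes carry the storage, export and uptake results. They were found in GENCODE M21 transcripts (build GRCm38) as a C, 5 stem bases, the loop CAGTGN, and 5 bases that pair with the stem, G with T allowed. Capitals mark the C and the 6-base loop, and the sequences are given 5′ to 3′ on the strand of the gene, with T for U.
Slc40a1: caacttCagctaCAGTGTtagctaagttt
Fth1: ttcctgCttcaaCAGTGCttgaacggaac
Ftl1: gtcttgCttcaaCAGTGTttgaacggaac
Tfrc a: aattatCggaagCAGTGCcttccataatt
Tfrc b: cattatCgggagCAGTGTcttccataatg
Tfrc c: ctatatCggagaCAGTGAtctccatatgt
Tfrc d: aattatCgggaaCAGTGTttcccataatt

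The Slc40a1 hairpin lies in the 5′ UTR, exon 1 of 8, at chr1:45925465-45925493 on the minus strand. The Fth1 hairpin (chr19:9982732-9982760, plus strand) and the Ftl1 hairpin (chr7:45459779-45459807, minus strand) lie in the 5′ UTR, exon 1 of 4 in both genes, and have the same upper stem, ttcaa paired with ttgaa. All 4 Tfrc hairpins lie in the 3′ UTR, exon 19 of 19, on the plus strand, in the order a to d at chr16:32631219-32631247, chr16:32631598-32631626, chr16:32631663-32631691 and chr16:32631710-32631738. The same pattern, in any protein-coding transcript of a gene, matched 294 of 21901 protein-coding genes (1.34%). The hairpins above were kept only from the first-numbered transcript of each gene. A match describes the letters and is no measurement of protein binding.

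Values are given as signal, the authors' normalised read count. Tests were made on log2(signal + 1) with limma, with p-values adjusted by Benjamini and Hochberg over all tested genes, and a change was called at an adjusted p under 0.05. Fold changes are on that scale, which understates changes of low genes. In bulk RNA fewer cells of a type and less RNA per cell cannot be told apart. Depth ran from 5828904 to 13199576 reads per library. Replicates of day 30 were closely alike: their pairwise chi-square, divided by the number of genes, was 2.16 to 2.88, and that of the other groups was 5.82 to 82.8. The spread at day 30 may therefore be technical. The fit shared its residual variance across all groups, so this bears on every p, in comparisons with and without day 30. With these libraries averaged into 1 sample, fewer of all tested genes were called in every comparison. Some of the day 30 calls given below were then lost, as stated with each gene or in the last section. The first library of day 0 and the second library of day 7 stood apart from the others of their group (r of 0.961 to 0.962 and 0.943 to 0.944 across genes). Cx3cr1, Csf1r, Emr1 and Cd68, markers of macrophages, were present in all groups. All 9 tested markers of the sorted population changed at day 3: Cx3cr1 (mean 38.9 against 153 at day 0), Csf1r, Emr1, Lyve1 and Timd4 fell, and Ly6c2 (852 against 14), Ccr2, Itgam and Cd68 rose. Of all tested genes 22.1% were called higher and 22.1% lower at day 3. At day 7, within the gate of day 0, Lyve1 (-3.84 ± 0.36, log2, SE; adjusted p = 4.54e-06) and Timd4 (-2.93 ± 0.41, adjusted p = 0.000145), markers of resident macrophages, fell, and Cd68 and Ccr2 rose. The part of such a change of macrophage population in the results was not tested.

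Compared with day 0, 2 of the 10 genes rose (Hmox1 and Fth1) and 4 fell (Slc40a1, Blvrb, Tfrc and Slc48a1) at day 3, where 22.1% of all tested genes were called higher and 22.1% lower. At day 7, 4 rose (Hmox1, Slc48a1, Fth1 and Ftl1) and 3 fell (Tfrc, Spic and Steap4), where 11.4% of all genes were called higher and 10.2% lower. At day 30 only Blvrb, of the 10 genes, was called, as lower, where 3.45% of all genes were called higher and 2.73% lower. The median log2 change of the 10 genes against day 0 was 0.00 at day 3, 0.13 at day 7 and -0.23 at day 30, beside -0.02, -0.02 and -0.01 for all tested genes. From day 3 to day 7, 4 of the 10 rose and 2 fell (23.3% and 23.5% of all genes). From day 7 to day 30, 3 rose and 5 fell (19.7% and 19.9%), and between day 3 and day 30, 3 were higher at day 30 and 4 lower (19.2% and 20.3%). All 10 differed somewhere among the 4 groups in limma's F test, as did 63.9% of all tested genes. The 3 comparisons with day 0 share its libraries.

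**Figure D1:**
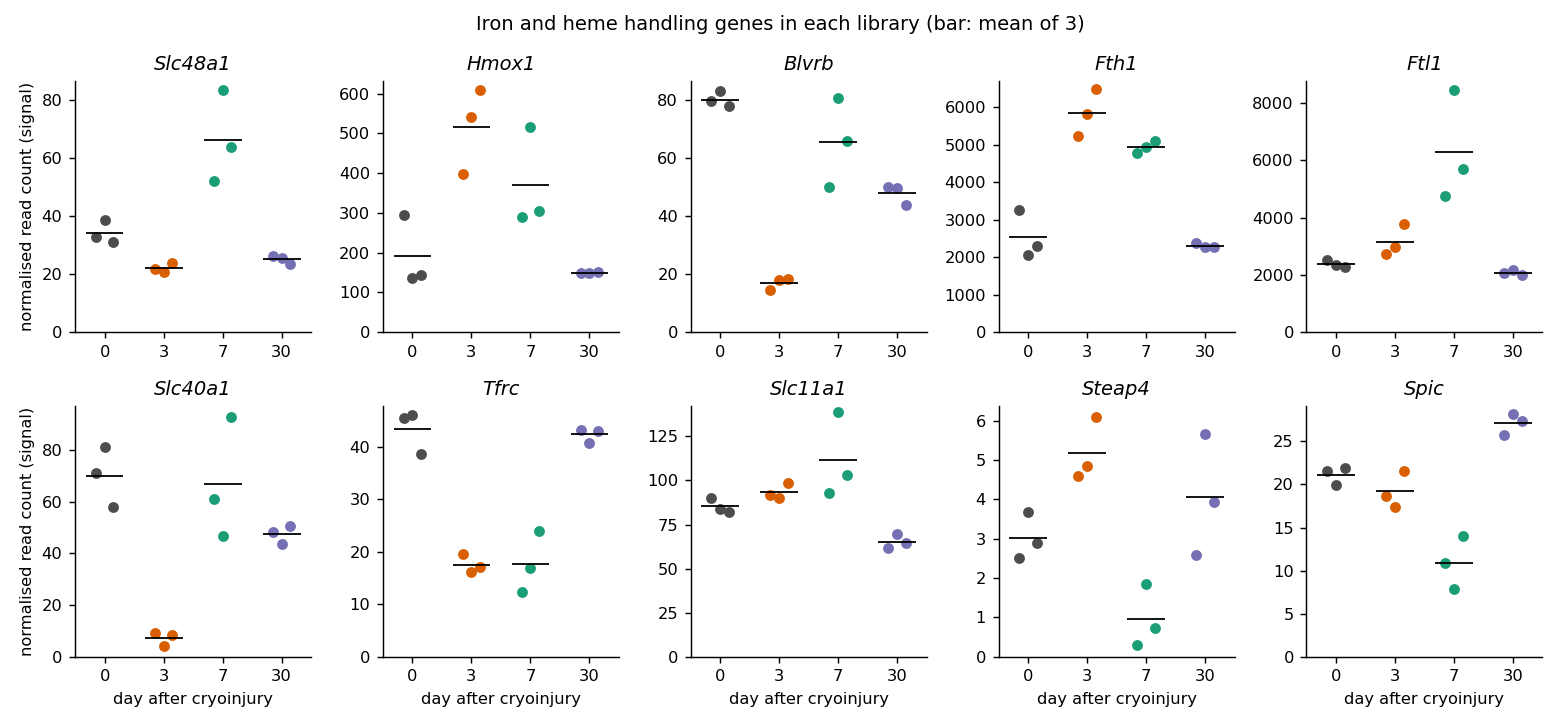
Signal (normalised read count, linear axis from 0) of the 10 genes in each of the 12 libraries by day after cryoinjury; points are libraries and bars are means of 3. Hmox1 and Fth1 are highest at day 3, Ftl1 and Slc48a1 at day 7, and Slc40a1 and Blvrb have their lowest libraries at day 3.

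**Figure D2:**
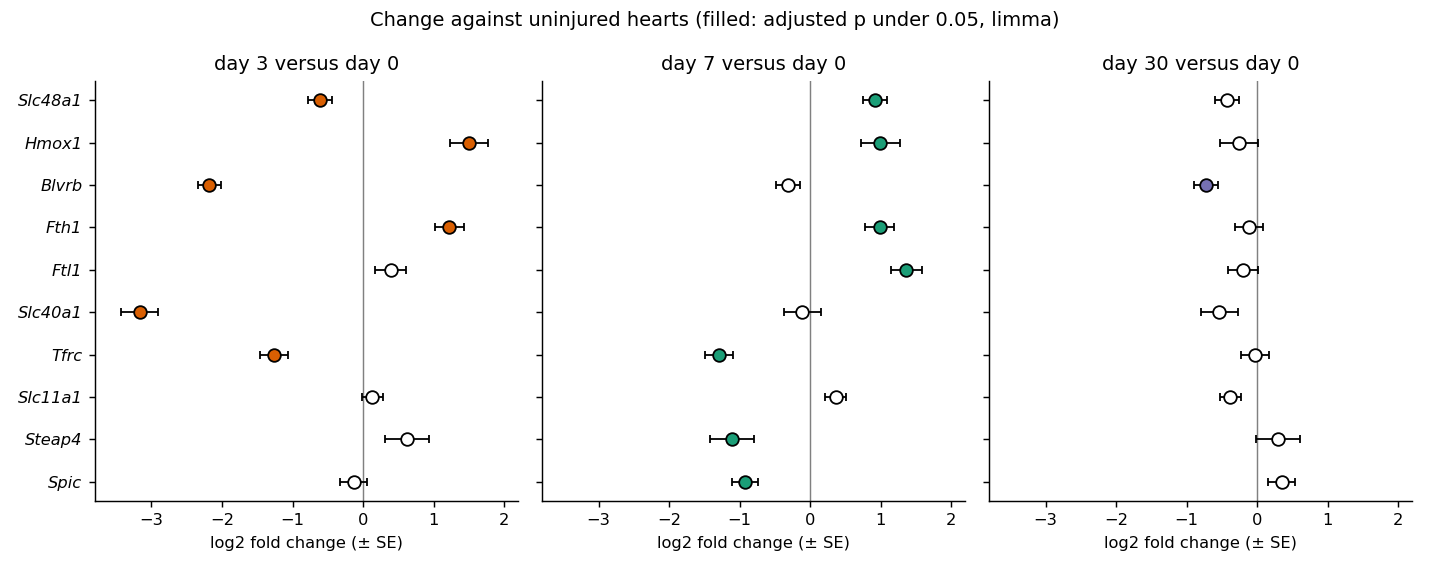
Log2 fold change (± SE) of the 10 genes at days 3, 7 and 30 against day 0; filled points passed an adjusted p under 0.05 in limma. At day 3, 2 genes are filled to the right and 4 to the left; at day 7, 4 and 3; at day 30 Blvrb is the only filled point.

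Slc48a1 (ENSMUSG00000081534, chr15:97778520-97792692) encodes HRG1, the transporter that moves heme from the phagosome into the cytosol. Its signal was 32.7, 38.6 and 31.1 in the libraries of day 0, 21.8, 20.5 and 23.7 at day 3, 51.9, 83.2 and 63.5 at day 7, and 26.2, 25.4 and 23.5 at day 30. All 3 libraries of day 7 stood above the other 9, and those of day 3 lay below day 0 and overlapped day 30. The gene fell by 0.61 ± 0.17 (SE, log2) at day 3 (adjusted p = 0.00999) and rose by 0.91 ± 0.17 at day 7 (adjusted p = 0.00173). From day 3 to day 7 it rose 2.87-fold (adjusted p = 6.41e-06), and from day 7 to day 30 it fell 2.54-fold (adjusted p = 7.72e-05). Levels at day 30 and day 0 differed by -0.43 (adjusted p = 0.159). Without the second library of day 0 the day 3 difference was -0.52 and missed the threshold (adjusted p = 0.0502). Slc48a1 overlaps Hdac7 on the other strand (mean signal 8.75), and whether reads were counted by strand is not given in the sources used here.

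Hmox1 (ENSMUSG00000005413, chr8:75093621-75100589) encodes heme oxygenase 1, the enzyme that opens heme into iron, carbon monoxide and biliverdin. Its signal was 295, 137 and 143 at day 0, 399, 542 and 608 at day 3, 291, 516 and 306 at day 7, and 150, 148 and 150 at day 30. Every day 3 library stood above every day 0 library, the day 7 libraries overlapped both, and the day 30 libraries lay within the range of day 0. Hmox1 rose 2.83-fold at day 3 (1.50 ± 0.27, log2, SE; adjusted p = 0.000365). It was 1.99-fold higher at day 7 (0.99 ± 0.27, adjusted p = 0.0177) and fell 2.39-fold from day 7 to day 30 (adjusted p = 0.00251; 0.0814 with the day 30 libraries averaged into 1 sample).

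The day 7 call of Hmox1 depended on single libraries. The difference from day 0 was 0.80 (adjusted p = 0.0837) without the second library of day 0, 0.83 (adjusted p = 0.0781) without the third, and 0.73 (adjusted p = 0.0714) without the second library of day 7. Without both libraries that stood apart, the first of day 0 and the second of day 7, it was 1.09 (adjusted p = 0.000296), and the fall from day 3 to day 7 then passed as well (-0.77, adjusted p = 0.000599, against -0.50 and 0.140 with all libraries).

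Blvrb (ENSMUSG00000040466, chr7:27447978-27466144) encodes biliverdin reductase B, an NADPH-dependent flavin and biliverdin reductase. Its signal was 79.5, 83.0 and 77.7 at day 0, 14.7, 18.1 and 18.3 at day 3, 50.0, 80.6 and 65.9 at day 7, and 50.0, 49.6 and 43.9 at day 30. The day 3 libraries were the lowest of all, far below the other 9. Blvrb fell 4.52-fold at day 3 (-2.18 ± 0.17, log2, SE; adjusted p = 7.87e-08), while Hmox1 rose in the same libraries. It rose by 1.87 ± 0.17 from day 3 to day 7 (adjusted p = 7.70e-07), and day 7 and day 0 differed by -0.31 (adjusted p = 0.200). The latter passed without the second library of day 7 (-0.47, adjusted p = 0.0418). Day 30 and day 7 differed by -0.42 (adjusted p = 0.060). This passed by DESeq2 (-0.46, adjusted p = 0.0371), under quantile normalisation (-0.47, 0.0449) and without the first library of day 7 (-0.60, 0.0087). At day 30 Blvrb was 1.66-fold lower than at day 0 (-0.73 ± 0.17, adjusted p = 0.0191). That call ended without the second (adjusted p = 0.0807) or the third (0.0577) library of day 0 and without each library of day 30 (adjusted p = 0.0644, 0.0741 and 0.110).

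Ferritin stores iron as a shell of heavy and light chains. The heavy chain oxidises iron so that it can enter the shell, and the light chain helps to lay down the mineral core. Fth1 (ENSMUSG00000024661, chr19:9980598-9985098) encodes the heavy chain. Its signal was 3263, 2061 and 2309 at day 0, 5228, 5817 and 6474 at day 3, 4787, 4943 and 5088 at day 7, and 2374, 2261 and 2265 at day 30. The 6 libraries of days 3 and 7 stood above the 6 of days 0 and 30. Fth1 rose 2.33-fold at day 3 (1.22 ± 0.20, log2, SE; adjusted p = 0.000165) and 1.98-fold at day 7 (0.98 ± 0.20, adjusted p = 0.00319). It fell 2.15-fold from day 7 to day 30 (adjusted p = 0.000871), a call that ended under quantile normalisation (-0.21, adjusted p = 0.393) and with the day 30 libraries averaged into 1 sample (adjusted p = 0.0744). Day 7 and day 3 differed by -0.24 (adjusted p = 0.353), which passed under quantile normalisation (-0.74, adjusted p = 0.0068). Day 30 and day 0 differed by -0.12 (adjusted p = 0.778).

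Ftl1 (ENSMUSG00000050708, chr7:45457944-45459884) encodes the light chain. Its signal was 2521, 2347 and 2285 at day 0, 2735, 2963 and 3759 at day 3, 4769, 8445 and 5685 at day 7, and 2070, 2155 and 1990 at day 30. The day 7 libraries stood above all others, and the day 3 libraries lay above day 0 without overlap. Ftl1 rose 2.57-fold at day 7 (1.36 ± 0.22, log2, SE; adjusted p = 0.000495) and by 1.13 (adjusted p = 0.00057) without the second library of day 7. The day 3 difference of 0.39 ± 0.22 did not pass (adjusted p = 0.162), but it passed under quantile normalisation (0.61, adjusted p = 0.0360) and without both libraries that stood apart (0.43, adjusted p = 0.0348). From day 3 to day 7 Ftl1 rose by 0.97 ± 0.22 (adjusted p = 0.00217; 0.46 and 0.107 under quantile normalisation), and from day 7 to day 30 it fell 2.95-fold (adjusted p = 0.000134). It was 1.51-fold lower at day 30 than at day 3 (adjusted p = 0.0424), a call that ended in 11 of 23 alternative settings, with an adjusted p of up to 0.330.

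The 2 ferritin chains thus had their highest group at different days. The ratio of Ftl1 to Fth1 signal was 0.773, 1.14 and 0.990 at day 0, 0.523, 0.509 and 0.581 at day 3, 0.996, 1.71 and 1.12 at day 7, and 0.872, 0.953 and 0.879 at day 30. The means were 0.967 ± 0.184 (SD, n = 3), 0.538 ± 0.0378, 1.27 ± 0.381 and 0.901 ± 0.0454 in that order. Every day 3 ratio lay below the other 9, and every day 7 ratio lay above every day 30 ratio. The ratio was chosen after the values were seen and is given as a description, without a p. Ferritin genes have near-identical processed copies: 5 ferritin pseudogenes are named in GENCODE M21 and 1 of them is in the table. How reads shared with such copies were counted is not given in the sources used here, so the ferritin levels carry that uncertainty.

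**Figure D3:**
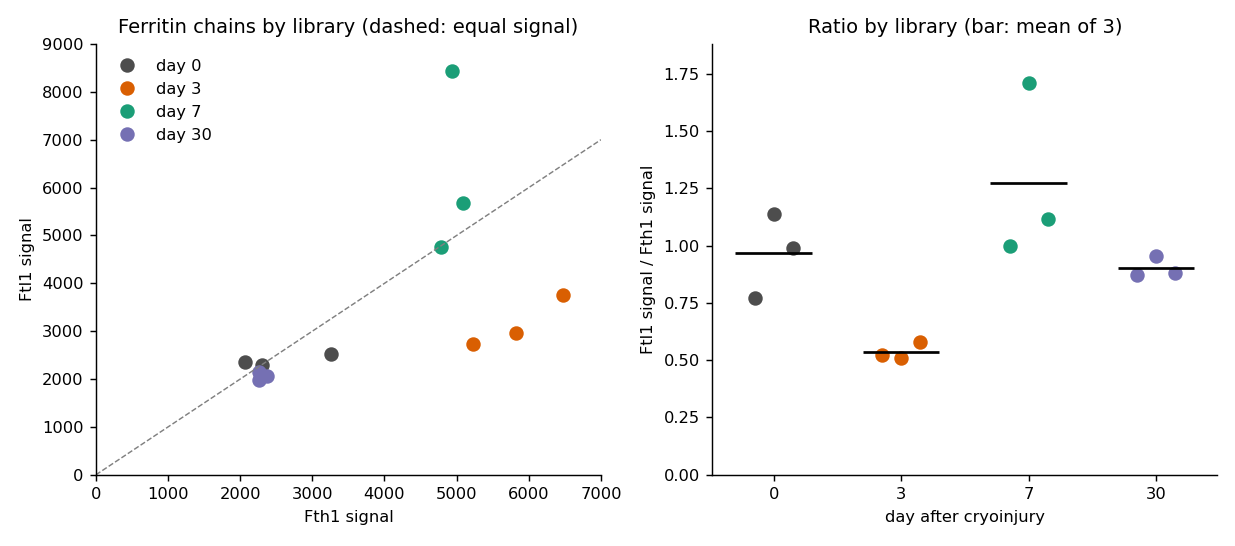
Left, Ftl1 signal against Fth1 signal in each library (points; dashed line, equal signal); right, the ratio of Ftl1 to Fth1 signal by day after cryoinjury (points, libraries; bars, means of 3). The 3 day 3 libraries lie lowest in ratio, at 0.509 to 0.581, and the second day 7 library highest at 1.71.

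Slc40a1 (ENSMUSG00000025993, chr1:45908068-45926523) encodes ferroportin, the iron exporter of the plasma membrane. Its signal was 71.1, 81.0 and 58.0 at day 0, 9.10, 4.01 and 8.47 at day 3, 61.0, 46.8 and 92.8 at day 7, and 48.4, 43.8 and 50.8 at day 30. The day 3 libraries, with 193 reads of the gene in all, were the lowest by far, and day 7 overlapped day 0 and day 30. Slc40a1 fell 8.99-fold at day 3 (-3.17 ± 0.27, log2, SE; adjusted p = 1.71e-07), the largest change of the 10 genes in any of the 6 comparisons. It rose 8.34-fold from day 3 to day 7 (adjusted p = 4.91e-07). Day 7 and day 30 differed from day 0 by -0.11 (adjusted p = 0.801) and -0.54 (adjusted p = 0.250). Thus in the same day 3 libraries the storage gene Fth1 was higher and the export gene Slc40a1 lower than at day 0. All 3 storage and export genes carry the hairpin of iron control in the 5′ UTR; protein was not measured.

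Tfrc (ENSMUSG00000022797, chr16:32608920-32632794) encodes transferrin receptor 1, which takes up iron bound to transferrin. Its signal was 45.5, 46.1 and 38.6 at day 0, 19.5, 16.1 and 17.1 at day 3, 12.3, 16.9 and 24 at day 7, and 43.3, 40.7 and 43.0 at day 30. The 6 libraries of days 3 and 7 lay below the 6 of days 0 and 30, the reverse of the order seen for Fth1. Tfrc fell 2.39-fold at day 3 (-1.26 ± 0.20, log2, SE; adjusted p = 0.000104) and 2.45-fold at day 7 (-1.29 ± 0.20, adjusted p = 0.000351). It rose 2.40-fold from day 7 to day 30 (adjusted p = 0.000302). Day 3 and day 7 differed by -0.03 (adjusted p = 0.906), and so did day 30 and day 0 (-0.03, adjusted p = 0.948). Tfrc is also known as a gene of dividing cells. At day 3, 8 of 8 markers of division fell, beside 22.1% of all tested genes. Their summed signals were 60.6 to 68.8 at day 3 against 227 to 279 at day 0. At day 7 the same sum was 168 to 327, and 1 of the 8 passed, as higher, beside 11.4% of all tested genes. Tfrc was below day 0 in all 3 libraries of day 7. The part of dividing cells in the Tfrc result was not tested.

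Slc11a1 (ENSMUSG00000026177, chr1:74375195-74386062) encodes NRAMP1, a metal transporter of the phagosome membrane of macrophages. Its signal was 90.0, 83.8 and 82.4 at day 0, 91.8, 90.1 and 98.6 at day 3, 92.7, 139 and 103 at day 7, and 61.8, 69.8 and 64.6 at day 30. The day 30 libraries lay below the other 9, and day 3 and day 7 overlapped. Day 7 and day 3 differed by 0.23 (adjusted p = 0.219), which passed under quantile normalisation (0.55, adjusted p = 0.0083). No difference from day 0 passed (0.13, 0.36 and -0.38 at days 3, 7 and 30, with adjusted p = 0.510, 0.0982 and 0.147); day 7 passed without its first library (0.48, adjusted p = 0.0323), and day 30 passed without the second library of day 7 (adjusted p = 0.0212). Slc11a1 fell by 0.74 ± 0.15 from day 7 to day 30 (log2, SE; adjusted p = 0.00163; 0.0840 with the day 30 libraries averaged). It was 0.51 ± 0.15 lower at day 30 than at day 3 (log2, SE; adjusted p = 0.0137), a call that ended under quantile normalisation (-0.28, adjusted p = 0.156), with the day 30 libraries averaged (adjusted p = 0.198), and without the third library of day 3 (adjusted p = 0.0568) or the first of day 30 (0.0613).

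Steap4 (ENSMUSG00000012428, chr5:7960457-7982213) encodes a metalloreductase that reduces iron and copper, and it was the lowest of the 10 genes. Its signal was 2.51, 3.67 and 2.90 at day 0, 4.60, 4.84 and 6.09 at day 3, 0.303, 1.85 and 0.730 at day 7, and 2.57, 5.65 and 3.93 at day 30. The day 7 libraries, with 2, 16 and 5 reads of the gene, lay below the other 9. Steap4 fell from day 3 to day 7 by 1.72 ± 0.31 (log2, SE; adjusted p = 0.000397) and rose by 1.40 ± 0.31 from day 7 to day 30 (adjusted p = 0.00301; 0.0713 with the day 30 libraries averaged). Against day 0 it was 1.10 ± 0.31 lower at day 7 (log2, SE; adjusted p = 0.0205), a call that ended without the second (adjusted p = 0.0730) or the third (0.0505) library of day 0 or the first of day 7 (0.0631). The day 3 difference of 0.62 from day 0 did not pass (adjusted p = 0.119).

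Spic (ENSMUSG00000004359, chr10:88674772-88685015) encodes SPI-C, a heme-induced transcription factor needed for the iron-recycling macrophages of the spleen. Its signal was 21.5, 19.9 and 21.9 at day 0, 18.7, 17.4 and 21.6 at day 3, 10.9, 7.86 and 14 at day 7, and 25.7, 28.1 and 27.4 at day 30. The day 7 libraries were the lowest and the day 30 libraries the highest, with day 0 and day 3 overlapping between them. Spic fell 1.90-fold at day 7 (-0.92 ± 0.19, log2, SE; adjusted p = 0.00322) and rose 2.41-fold from day 7 to day 30 (adjusted p = 0.000216). Its direction at day 7 was the opposite of that of Hmox1, Slc48a1, Fth1 and Ftl1. Day 30 differed from day 3 by 0.48 (adjusted p = 0.0571), which passed in 8 of 23 alternative settings, and from day 0 by 0.34 (adjusted p = 0.301).

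The order of the group means, with neighbours that did not differ joined by "and", can be given for each gene. For Hmox1 it was day 3 and day 7, then day 0 and day 30. Fth1 had the same order. Ftl1 had day 7, then day 3, day 0 and day 30, and Slc48a1 had day 7, then day 0, day 30 and day 3, although day 3 and day 0 of Slc48a1 and day 3 and day 30 of Ftl1 differed when compared directly. Slc40a1 and Blvrb had day 0, day 7 and day 30, then day 3, with day 0 and day 30 of Blvrb called different when compared directly. Exceptions under other settings are given with Blvrb. Tfrc had day 0 and day 30, then day 7 and day 3. Spic had day 30, day 0 and day 3, then day 7, and Steap4 had day 3, day 30 and day 0, then day 7. No neighbours of Slc11a1 differed in its order of day 7, day 3, day 0 and day 30 in the fit of all libraries, with the exceptions under other settings given with that gene.

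Levels of different genes were compared per kilobase of the first-numbered GENCODE transcript of each gene, a length that stands in for the isoforms present. Fth1 and Ftl1 had the highest values of the 10, with mean signals per kilobase of 2739 and 2463 at day 0, 6286 and 3257 at day 3, and 5317 and 6508 at day 7. Hmox1 came next, at 122 at day 0 and 329 at day 3. Blvrb, at 77.9 at day 0 and 16.5 at day 3, was above Slc11a1 (36.9) at day 0 and below it (40.4) at day 3. Slc40a1 was at 20.8 per kilobase at day 0 and 2.14 at day 3, and Tfrc at 8.88 and 3.59. Steap4 stayed between 0.305 and 1.64 in the 4 groups.

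The other genes of iron and heme handling were taken from 8 lists. Their counts are to be read against the shares of all tested genes called higher and lower. These were 22.1% and 22.1% at day 3, 11.4% and 10.2% at day 7, and 3.45% and 2.73% at day 30. Of the hemoglobin and heme uptake genes, 4 were tested; 2 rose and 2 fell at day 3, and 1 rose and 1 fell at day 7. Cd163, the receptor for hemoglobin bound to haptoglobin, fell from a mean signal of 412 at day 0 to 3.17 at day 3 (-6.76 ± 0.34, log2, SE) and 43.7 at day 7 (-3.28 ± 0.34). It was at 226 at day 30. Hp, which encodes haptoglobin, rose by 4.17 ± 0.58 at day 3. Lrp1, a receptor for heme bound to hemopexin and for many other ligands, rose at day 3 (1.12 ± 0.24, adjusted p = 0.00156) and day 7 (1.09 ± 0.24, adjusted p = 0.00578).

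Of 8 regulators and enzymes of heme breakdown outside the 10 genes, 6 rose at day 3 and the other two did not pass, and 2 rose at day 30. The list median was 0.85 at day 3 (log2), beside -0.02 for all tested genes. Bach1, the repressor of Hmox1 and the ferritin genes, rose from 72.8 at day 0 to 198 at day 3 (1.42 ± 0.15, log2, SE; adjusted p = 2.24e-06), in the libraries where Hmox1 and Fth1 also rose. Its small Maf partner gene Mafk rose by 2.08 ± 0.28 (adjusted p = 1.96e-05). At day 30 the 2 genes called were Maff (1.73 ± 0.44, adjusted p = 0.0318) and Nfe2l2 (0.64 ± 0.14, adjusted p = 0.0127), which encodes the activator NRF2. Of the 8 genes, edgeR called 1 at day 30 and DESeq2 called 2. Hmox1 at day 30 differed from day 0 by -0.26 (adjusted p = 0.609).

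Of 8 tested genes of iron import and release, 3 rose and 3 fell at day 3, and 1 rose and 1 fell at day 7, the day 7 counts being near the shares of all tested genes. Slc39a14, an importer of iron not bound to transferrin, rose from 11.6 at day 0 to 81.7 at day 3 (2.72 ± 0.19, log2, SE; adjusted p = 2.04e-08). Trf, which encodes transferrin, fell from 572 to 43.9 (-3.67 ± 0.16, adjusted p = 2.39e-10) at day 3 and was also lower at day 7 (-0.79, adjusted p = 0.00333) and day 30 (-0.74, adjusted p = 0.0143). Lcn2, a carrier of iron-binding siderophores, rose by 2.68 ± 0.29 at day 3. Steap3, the endosomal reductase of the transferrin route, rose at day 3 (0.71 ± 0.24, adjusted p = 0.0233), and Slc39a8, another importer of iron not bound to transferrin, fell (-1.27 ± 0.30, adjusted p = 0.00284). Steap3 and Slc39a8 were chosen after their values were seen, so the mix of directions among the named genes is no result. Slc22a17 of the same list fell from 2.83 at day 0 to 0.208 at day 3 (-1.69 ± 0.27, adjusted p = 0.000119).

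The only tested gene among 3 partners of export was Cp, which encodes ceruloplasmin, the oxidase that loads exported iron onto transferrin. Cp fell with Slc40a1 at day 3, from 78.1 to 7.19 (-3.35 ± 0.27, log2, SE; adjusted p = 9.04e-08). At day 7 it was still lower, at 20.7 (-1.94 ± 0.27, adjusted p = 0.00013), where Slc40a1 was at 66.9 against 70.0 at day 0. Among 5 tested genes of storage and iron chaperones, Pcbp1 rose (0.41, adjusted p = 0.0443) and Ncoa4, the receptor that brings ferritin to the lysosome, fell at day 3 (-1.23 ± 0.18, adjusted p = 4.57e-05).

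Of 6 tested iron sensing genes, Fbxl5, whose protein removes iron regulatory protein 2, rose at day 3 (1.11 ± 0.21, log2, SE; adjusted p = 0.000423). Aco1, which encodes iron regulatory protein 1, fell (-0.91 ± 0.19, adjusted p = 0.00111), and so did Hfe (-1.59 ± 0.15, adjusted p = 4.97e-07). Of 9 tested genes of heme synthesis and export, Alas1, the first enzyme of synthesis, rose at day 3 (1.25 ± 0.19) and day 7 (0.69 ± 0.19, adjusted p = 0.0204), and the heme exporter Abcg2 fell at day 3 (-2.13 ± 0.22). Of 11 mitochondrial iron genes, 3 rose and 1 fell at day 3, and 2 rose and 1 fell at day 7, which is near or below the shares of all tested genes; the iron-sulphur scaffold gene Iscu rose by 0.90 ± 0.17 at day 7 (adjusted p = 0.00197). In limma none of the 19 tested genes of the breakdown, storage and sensing lists passed at day 7 (4 had an unadjusted p under 0.05; edgeR called 0 and DESeq2 1). At day 30 none of the 36 tested genes of the uptake, synthesis, storage, sensing, export partner and mitochondrial lists passed. Of all tested genes 3.45% were called higher and 2.73% lower at day 30. Of the 36, 6 had an unadjusted p under 0.05, edgeR called 0 and DESeq2 3. The lists in these counts were picked because limma called none of their genes, so the counts are no result about them.

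**Figure D4:**
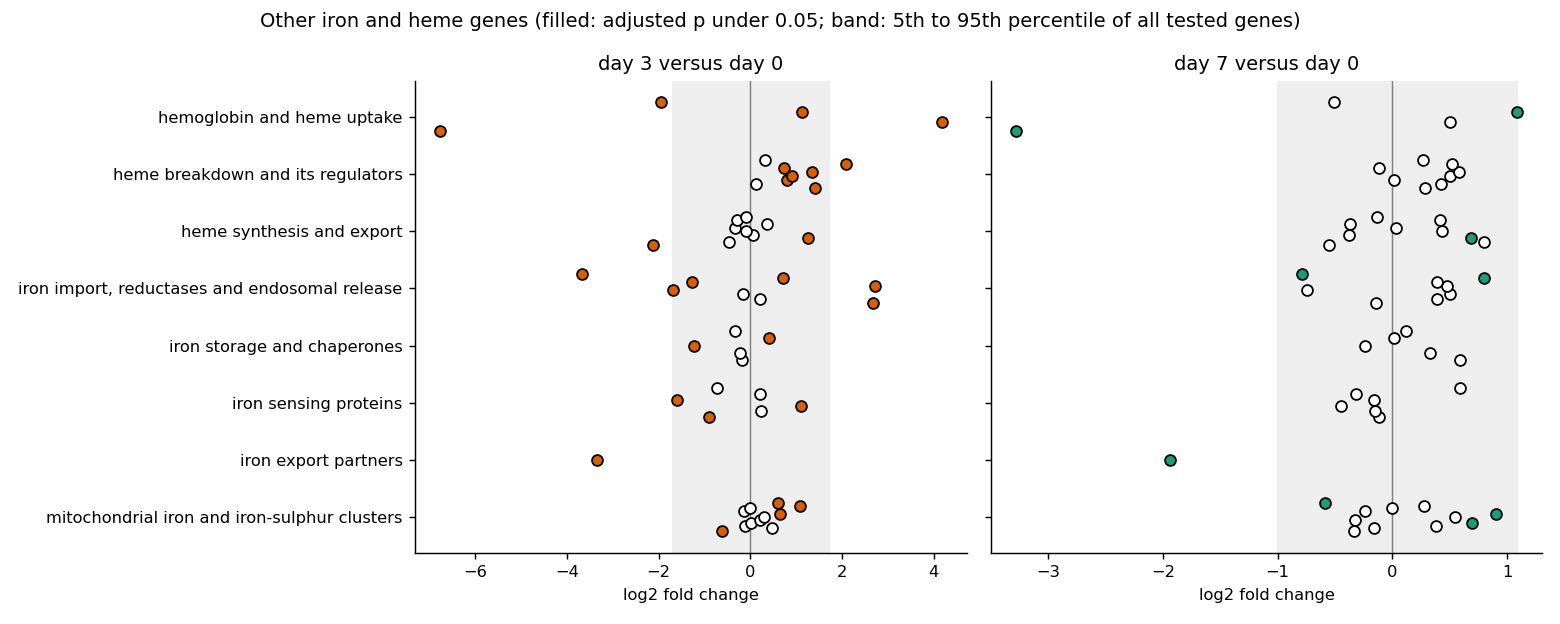
Log2 fold change against day 0 of the tested genes of the 8 other iron and heme lists at day 3 (left) and day 7 (right); each point is a gene, filled where the adjusted p was under 0.05, and the band holds the 5th to 95th percentile of all tested genes. Cd163 lies farthest left at day 3 at -6.76, and Hp farthest right at 4.17.

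Markers of other cells were summed over each list. Counts of called markers in all these lists are to be read against the shares of all tested genes called higher and lower. Against day 0 these were 22.1% and 22.1% at day 3, 11.4% and 10.2% at day 7, and 3.45% and 2.73% at day 30. Of 12 erythroid markers 6 were in the table and 5 were tested; the sums were 23.4, 127 and 146 at day 0, 3.31 to 23.9 at day 3, 21.3 to 62.7 at day 7 and 21.5 to 26.7 at day 30. At day 3, 4 of the 5 fell, and up to 3 of the 6 were at 0 in a library. The first library of day 0, lowest in erythroid markers of its group, had the highest Hmox1 and Fth1 of its group (295 and 3263). That library was also lowest of its group in the fibroblast, cardiomyocyte, neutrophil, endothelial and mural sums, so its low sum was not particular to erythroid markers. Alas2, the erythroid enzyme of heme synthesis, averaged 0.991 or less in every group. No marker was called at day 30 in limma (4 had an unadjusted p under 0.05, and edgeR and DESeq2 called 0). The part of red cell RNA in the results was not tested.

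All 8 fibroblast markers were in the table. Against day 0, 4 rose and 1 fell at day 3, 6 rose at day 7 and 2 rose at day 30. The sums were 40.0 to 118 at day 0, 285 to 383 at day 3, 557 to 2190 at day 7 and 168 to 174 at day 30. The second library of day 7 had the highest sum (2190) and also the highest Ftl1, Slc48a1, Hmox1, Slc11a1, Blvrb and Steap4 and the lowest Slc40a1 and Spic of its group. The same library was also highest of its group in the cardiomyocyte (208), neutrophil (160), endothelial (142), mural (45.0) and erythroid (62.7) sums. Without that library and the first of day 0, the 7 calls of day 7 against day 0 and the 8 calls of day 30 against day 7 remained. Of 8 cardiomyocyte markers, 8 fell at day 3, 3 at day 7 and 8 at day 30; their sums were 77.7 to 389 at day 0, 11.2 to 16.9 at day 3, 81.8 to 208 at day 7 and 24.4 to 25.3 at day 30. Of 10 neutrophil markers 6 were in the table; their sums were 53.2 to 102 at day 0, 245 to 309 at day 3, 101 to 160 at day 7 and 60.9 to 65.0 at day 30, and 3 of the 5 tested rose at day 3 and 2 at day 7. Of 7 endothelial markers 1 rose at day 3; their sums were 15 to 191 at day 0, 103 to 149 at day 3, 60.4 to 142 at day 7 and 28.8 to 31.6 at day 30. Of 5 mural cell markers 2 fell at day 3, 2 at day 7 and 1 at day 30; their sums were 40.0 to 103, 9.33 to 10.4, 22.5 to 45.0 and 23.7 to 28.6 in the order of the days. The part of these cells in the results was not tested.

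For each of the 10 genes the 3 genes with the most similar values were found by Pearson r of log2(signal + 1) over the 12 libraries, among the 7060 genes whose signal averaged 10 or more. The 12 libraries form 4 groups, so these r mostly rank likeness of group means and are a description. Hmox1 and Fth1 shared their nearest gene, Csnk2b (r = 0.981 and 0.984). Among the nearest to Ftl1 were Pld3 (0.981) and Ctsa (0.979), genes of lysosomal proteins, and nearest to Slc40a1 were Cpq (0.993), Cnnm3 (0.979) and S1pr1 (0.979). Blvrb was nearest to Slc29a1 (0.987), Txnip (0.984) and Sord (0.981), and Slc48a1 to Ppfia4 (0.972), Ubxn6 (0.967) and Cln6 (0.967). Slc11a1 was nearest to Dpp3 (0.972), Tfrc to Kansl1l (0.967), Spic to Ttc39b (0.981) and Steap4 to Eps8 (0.901).

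Promoters of 7 of the 10 genes were in the RefSeq table (GRCm38.p6; a window around each start site, mostly upstream). The antioxidant response core TGACNNNGC, searched on both strands, was in none of the 10 promoter entries of these 7 genes, against 12.4% of all 32851 promoters. The hypoxia response core ACGTG was in 3 of the 10 promoter entries, those of Tfrc and Blvrb, against 19.6% of all promoters. The Tfrc entries hold the same site, so 2 of the 7 genes have the core. A match here describes letters in this window and is no measurement of binding. Sequence outside the window was not searched, so a missing match says nothing about sites farther from the start site.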

How the data were processed

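RNA from 12 libraries, 3 per group, was sequenced by the authors. The submitters' processing notes name cutadapt 1.3, RSEM 1.2.20, edgeR 3.14.0 and build GRCm38; their roles, settings and strandedness are not given in the sources used here. The deposited table gives a linear signal (a normalised read count, judged from the values) and a deposited log2 form of it, in which a signal under 1 is written as 0. Dividing by each library's smallest step gave whole reads within 0.02 for 100% of 173520 values, so depth was known. A count of 0 allows 3 reads, a signal of 0.190 to 0.543, for counting error only.

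Log2(signal + 1) of the 12879 genes whose signal averaged 1 or more was fitted with limma 3.58.1 in R 4.3.3 (a variance prior with trend, 1 mean per group, no block, 8 residual degrees of freedom, two-sided), with Benjamini-Hochberg adjustment within each comparison and a threshold of 0.05. The scripts were tested on simulated data. Alternatives were quantile normalisation, pseudocounts of 0.1 and 5, a replicate block, median centring, testing all genes or only those averaging 5 or more, edgeR 4.0.16 and DESeq2 1.42.0 on the recovered reads, leaving out each library, leaving out both libraries that stood apart, and averaging the day 30 libraries.

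The 10 genes and all lists were chosen with earlier results of these data known. All 10 were named; of the other lists, up to 3 called genes per comparison, by size of change; and the 3 nearest genes by r, of which a part is printed and 1 is not reported here. Some listed genes were not analysed here. GENCODE M21 held 14243 of 14460 identifiers (98.5%). Sequences come from GENCODE M21 and RefSeq tables.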

Additional observations from a re-analysis of the deposited data

How the results depend on the processing

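Over 60 results of single genes (10 genes, 6 comparisons) and 23 alternative settings, 1374 values were computed. Of these, 1316 kept their side of the threshold, 24 passed it newly, 34 lost it, and no called direction reversed. Some differences that were not called changed sign, such as Fth1 between day 30 and day 0 (-0.12 as reported, up to 0.40). No scaling moved the median of all genes by over 0.1 (log2). The comparison of day 30 with day 0 moved most. It called 796 genes, against 1328 by DESeq2, 2513 without both libraries that stood apart, 14 with the day 30 libraries averaged into 1 sample, and 235 to 1990 when single libraries were left out. Of the 10 genes it called 1, against 0 to 3 when single libraries were left out, 3 without both libraries that stood apart (Slc11a1 and Slc48a1 in addition) and 0 with day 30 averaged. Averaging day 30 also gave 1740 genes for day 7 against day 0 (2782 before), 815 for day 30 against day 7 (5103 before; 4 of the 10 genes in place of 8, with Hmox1, Slc11a1, Fth1 and Steap4 lost), and 2013 for day 30 against day 3 (5079 before); that setting assumes a lone day 30 sample to vary like the other groups. The lowest depth was 5828904 reads, and Steap4, with 23 reads at day 7, is limited most by depth.

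The labels number the replicates 1 to 3 in each group. Deviations from the group mean correlated at a median r of 0.0049 between libraries of the same number (18 pairs, -0.0831 to 0.21) and -0.0069 between others (36 pairs), and 6 of 12 libraries correlated best with their own number, so the numbers were not taken to pair the libraries. With a replicate block, 5725, 2850 and 835 genes were called at days 3, 7 and 30 against day 0, 6040 for day 7 against day 3, 5144 for day 30 against day 7, 5110 for day 30 against day 3, and 8230 over the 4 groups. Of the 10 genes, 6, 7, 1, 6, 8, 6 and 10 were called in that order; Ftl1 between day 30 and day 3 (-0.59, adjusted p = 0.0508) was the only call lost.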
